A study of Mus musculus with 11 samples.

Results

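The S100 proteins are small and mostly calcium sensors, and 8 of their genes were followed in mouse microglia, the resident macrophages of the brain: S100a1, S100a4, S100a6, S100a8, S100a10, S100a11, S100a13 and S100a16. The genes were found through the RefSeq accession that the scanner files give for each array probe, and 6 of the 8 had a matched probe, out of 23329 genes matched in all. S100a10 and S100a16 had none and were not analysed here. All 6 matched genes passed the filter on dim probes and are among the 19555 genes tested.

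RNA was measured on 11 single-colour Agilent arrays, 1 sample each, from C57BL/6N mice in 4 groups. A_FACS (n = 2) were microglia sorted from the brains of adult females of 12 to 24 weeks. NB_FACS (n = 3) were sorted the same way, on intermediate CD45 and high CX3CR1, from newborns of postnatal days 1 to 3 of both sexes, after enzymatic digestion in the presence of serum. NB_Control (n = 3) were newborn microglia grown in flasks that pooled several brains, fed 20% L-929 cell conditioned medium (a source of macrophage growth factor) between day 8 and day 29, shaken off and kept for 1 day in medium with 10% serum. NB_Stim (n = 3) were handled alike but received human TGF-β1, IL-34 and CX3CL1, signals that microglia meet in the brain, at 100 ng/mL each. Age, sex, the way of killing and the dissociation of the tissue differed together between A_FACS and NB_FACS. Adults were killed with CO2 and perfused, and their brains pressed through a strainer, while newborns were decapitated and their brains dissociated by pipette. Between the cultured and the sorted groups, the weeks in flasks before shaking, the day of culture and the way of isolation differed together. Within each pair of groups these factors cannot be told apart.

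Most S100 proteins form dimers that open a binding face when calcium rises, each subunit carrying a pair of EF-hand calcium loops, and they then bind other proteins such as annexins, cytoskeletal proteins and membrane receptors. S100A4 binds non-muscle myosin and is abundant in fibroblasts and migrating cells, S100A6 (calcyclin) is abundant in dividing and mesenchymal cells, and S100A11 binds annexin A1. S100A1 is best known from muscle, where it acts on calcium release. S100A8 forms calprotectin with S100A9 in neutrophils and monocytes, and both proteins signal through TLR4 when released. S100A13 takes part in the release of FGF1 and of interleukin-1 alpha, proteins that leave the cell without a signal peptide.

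All 8 genes lie on chromosome 3. In the RefSeq order of the mouse genome GRCm38.p6, S100a1 came first, S100a13 directly after it, and S100a8 stood next to S100a9, the neighbour that encodes its partner. S100a11 and S100a10 closed a stretch of 101 annotated genes that held 15 S100 genes. RefSeq promoter windows were at hand for 7 of the 8 genes, and the 250 bases before the transcript start are shown for the 4 genes whose levels are described at most length below. Capitals mark the letters of 4 short motifs searched on both strands: TATAAA (the TATA box), TGANTCA (AP-1), GAGGAA (the core of PU.1 sites) and TTGCNNAA (C/EBP).
S100a4, chr3:90603520-90603769, forward strand: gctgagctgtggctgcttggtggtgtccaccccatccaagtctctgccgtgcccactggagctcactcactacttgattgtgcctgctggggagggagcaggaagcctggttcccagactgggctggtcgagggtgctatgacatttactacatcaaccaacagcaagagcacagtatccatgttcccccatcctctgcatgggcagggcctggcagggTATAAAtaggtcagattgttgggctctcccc
S100a6, chr3:90612644-90612893, forward strand: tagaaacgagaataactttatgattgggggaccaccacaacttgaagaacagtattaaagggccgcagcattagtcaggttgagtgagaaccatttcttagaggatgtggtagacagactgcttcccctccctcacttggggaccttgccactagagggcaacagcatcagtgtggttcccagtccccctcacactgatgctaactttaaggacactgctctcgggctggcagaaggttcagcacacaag
S100a8, chr3:90668821-90669070, forward strand: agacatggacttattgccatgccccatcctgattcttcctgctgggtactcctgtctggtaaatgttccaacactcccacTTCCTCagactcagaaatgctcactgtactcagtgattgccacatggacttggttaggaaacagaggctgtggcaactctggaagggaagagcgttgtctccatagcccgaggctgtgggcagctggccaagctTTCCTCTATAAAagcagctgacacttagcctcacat
S100a11, chr3:93520246-93520495, forward strand: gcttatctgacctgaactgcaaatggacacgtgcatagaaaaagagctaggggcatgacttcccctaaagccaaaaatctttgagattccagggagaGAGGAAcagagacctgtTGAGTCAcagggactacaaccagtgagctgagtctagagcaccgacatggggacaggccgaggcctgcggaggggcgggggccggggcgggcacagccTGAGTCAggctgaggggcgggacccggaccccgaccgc

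The S100a4 window held 1 TATAAA, with its first base 31 bases before the start. The S100a8 window held TATAAA at 30 bases before the start and GAGGAA on the reverse strand at 36 and 170 bases before it, and the nearer of these runs directly into the TATAAA, so that their capitals form 1 block. The S100a11 window held TGANTCA at 38 and 136 bases and GAGGAA at 153 bases before the start. None of the 4 motifs was found in the S100a6 window. Over all 32851 promoter windows of the same 250 bases, TATAAA occurred in 12.4%, TGANTCA in 6.75%, GAGGAA in 23.3% and TTGCNNAA in 9.56%. The letters of the Smad palindrome GTCTAGAC, searched because one of the added cytokines signals through Smad proteins, were in 0.167% of all windows and in none of the S100 windows shown. These matches describe the sequence, and binding was not measured.

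S100a1 and S100a13 start in opposite directions 105 bases apart, and the stretch between both starts is shown because these neighbours share it. Capitals mark its 3 CpG dinucleotides.
S100a1 and S100a13, chr3:90514331-90514434, forward strand: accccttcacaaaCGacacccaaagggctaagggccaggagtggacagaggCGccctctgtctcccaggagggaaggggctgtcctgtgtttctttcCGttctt

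All values below are log2 quantile-normalised intensities, a relative scale on which 1 unit is 2-fold, and each gene is compared with itself between groups, since levels of different probes cannot be set against each other. Differences come from limma, fitted over all 11 arrays and all 19555 genes, and a gene was called at a Benjamini-Hochberg adjusted p below 0.05. Over the 4 groups, the limma F test called 5 of the 6 genes (all but S100a8), where 48.8% of all genes tested were called. The arrays lay on 2 slides, with replicate 3 of each newborn group on the second, brighter slide. The share of probes well above background ranged from 66.8% to 80.4% over the arrays, and no spot was saturated. Replicates 1 and 2 of NB_Control and of NB_Stim lay closer together than other replicates, with a mean absolute log2 difference of 0.172 and 0.19 against 0.257 to 0.499 among the other newborn pairs.

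**Figure D1:**
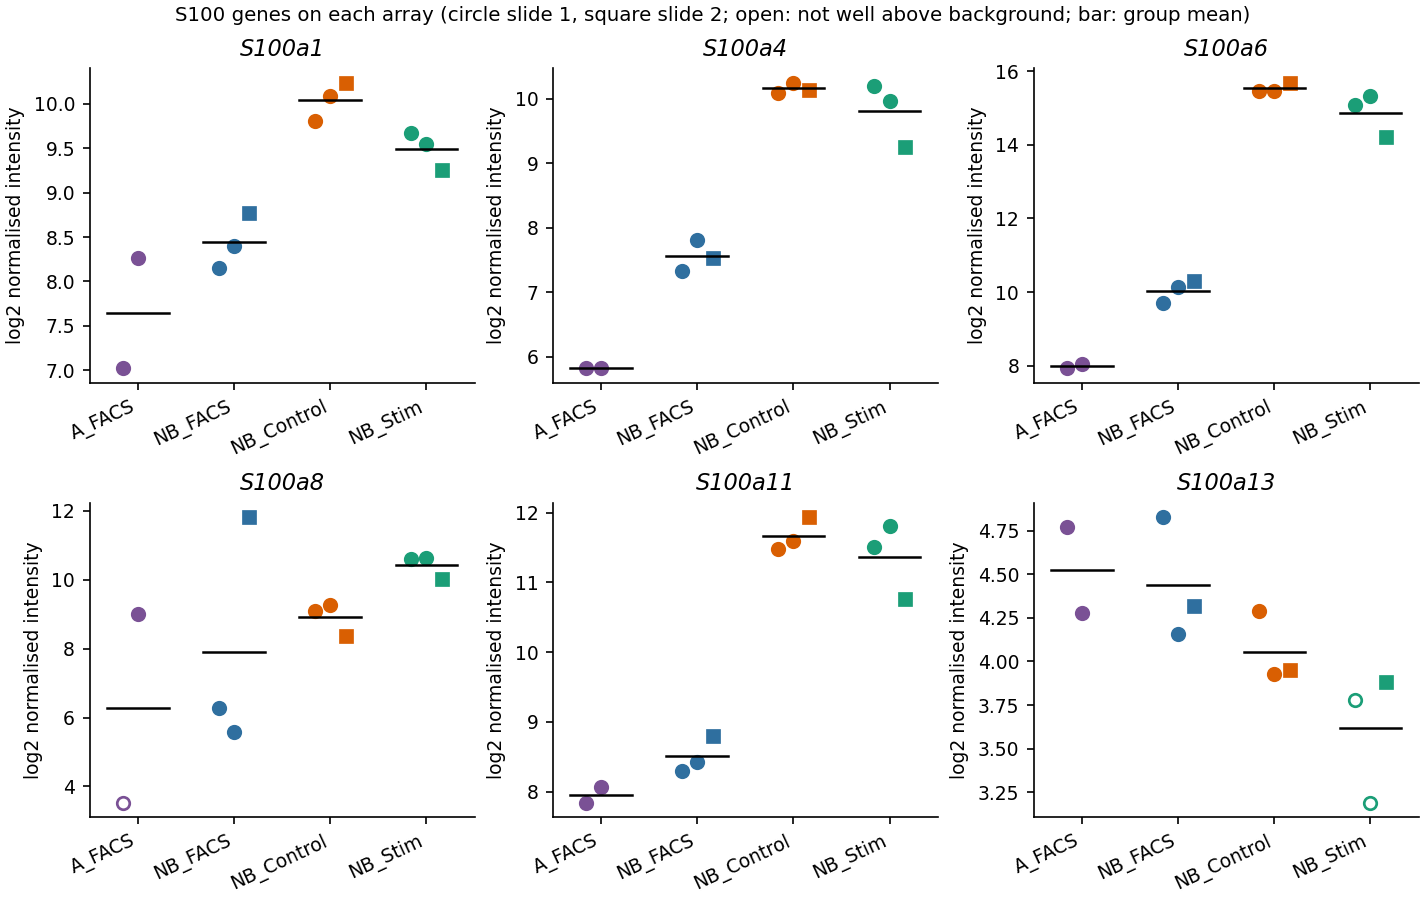
Each panel plots the log2 normalised intensity of 1 S100 gene (vertical axis, its own scale) on every array of the 4 groups (horizontal axis); circles are slide 1, squares slide 2, open symbols arrays on which the probe was not well above background, and bars group means. S100a4, S100a6 and S100a11 lie higher on all cultured arrays than on all sorted ones, while S100a8 spreads from 3.53 to 11.82 within the sorted groups.

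In culture without cytokines, 4 of the 6 S100 genes rose against sorted newborn microglia: S100a6 by 45.2-fold, S100a11 by 8.97-fold, S100a4 by 6.07-fold and S100a1 by 3.03-fold. None fell. S100a8 and S100a13 were not called, at log2 differences of 1.00 and -0.38. Of all genes tested, 15.8% were called higher and 13.9% lower in NB_Control than in NB_FACS, and 44.2% did not overlap between the groups. The median difference of the 6 genes was 2.10 on the log2 scale, beside 0.09 over all genes.

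S100a6 had the largest difference of the family. Its log2 level was 9.70, 10.13 and 10.29 on the NB_FACS arrays and 15.46, 15.46 and 15.69 on the NB_Control arrays. The groups were far apart and each was tight, with SDs of 0.301 and 0.131 (n = 3 each). The log2 difference was 5.50 ± 0.271 (SE), with a 95% interval of 4.89 to 6.10 and a limma adjusted p of 1.35e-06. Only 0.21% of all genes tested rose by more in this comparison. By absolute difference, counting falls as well, S100a6 ranked 66.

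S100a11 stood at 8.29, 8.43 and 8.80 in NB_FACS and at 11.48, 11.59 and 11.94 in NB_Control. The difference of 3.16 ± 0.265 (SE) had a limma adjusted p of 2.17e-05, and 1.07% of genes rose further. By absolute difference, counting falls as well, S100a11 ranked 403. S100a1 stood at 8.15, 8.40 and 8.77 in NB_FACS and at 9.81, 10.09 and 10.24 in NB_Control, without overlap. Its difference was 1.6 ± 0.300 (SE), with a limma adjusted p of 0.00272.

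S100a4 was read by 3 probes, of which 2 passed the filter. Its level, the mean of these 2, was 7.33, 7.81 and 7.53 in NB_FACS and 10.09, 10.25 and 10.14 in NB_Control. The log2 difference was 2.60 ± 0.229 (SE), with a limma adjusted p of 2.97e-05. Both probes rose, but by different amounts: 2.06 for MMXS07714 and 3.14 for MMXS15085. The first of these lies at the very start of the gene, with 36 of its 50 bases in the first transcribed bases of the RefSeq promoter window, and the other shares no stretch longer than 5 bases with it. The remaining probe, MMXS03343, was well above background on 1 of the 11 arrays, and shares 17 bases with MMXS07714.

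**Figure D2:**
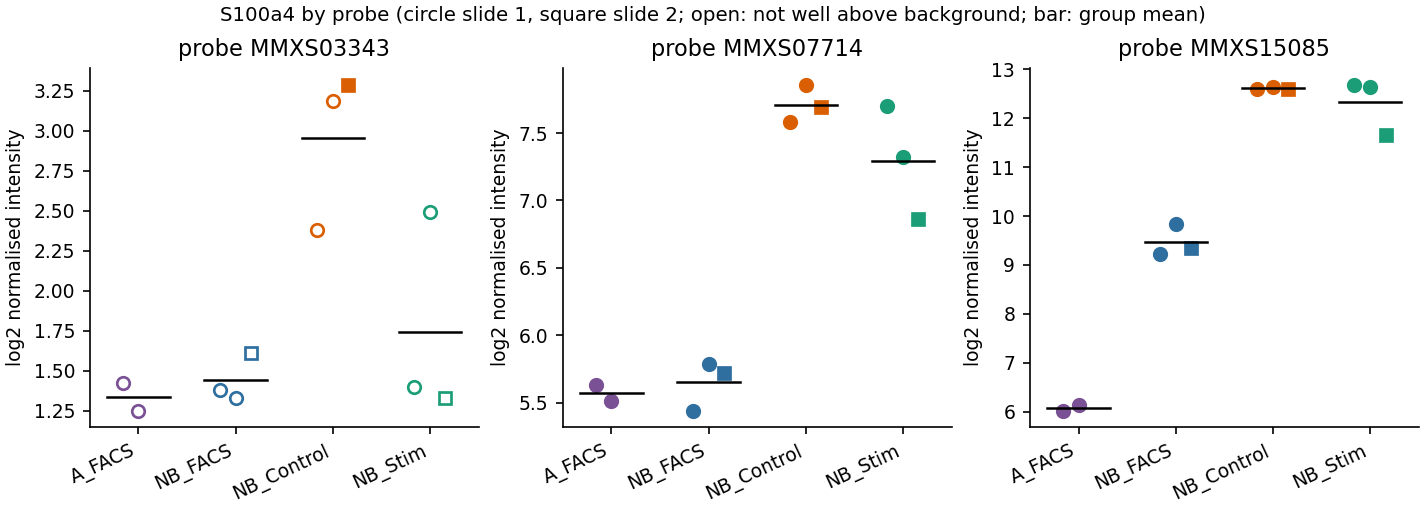
Log2 normalised intensity of the 3 S100a4 probes on every array (panels; vertical axes differ), with circles for slide 1, squares for slide 2, open symbols for arrays not well above background and bars for group means. Probe MMXS15085 separates A_FACS (6.02 and 6.14) from NB_FACS (9.22 to 9.83), while probe MMXS07714 has both groups between 5.44 and 5.79.

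S100a13 was dim throughout, at 4.83, 4.16 and 4.32 in NB_FACS and 4.29, 3.93 and 3.95 in NB_Control. The groups overlapped, and the difference of -0.38 ± 0.245 (SE) was within the spread (limma adjusted p = 0.293). S100a1, which shares the stretch of promoter shown above with it, rose in the same comparison, as given above. The difference between these changes was not tested.

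The rise of S100a4, S100a6 and S100a11 went with that of fibroblast marker genes. Of a list of 10 such markers, 9 were tested, and 7 were called higher and none lower in NB_Control than in NB_FACS. Their mean log2 level was 6.84 to 6.98 on the NB_FACS arrays, 10.63 to 11.08 in NB_Control, 10.33 to 11.08 in NB_Stim and 4.88 to 6.10 in A_FACS. Col1a1, a collagen chain made by fibroblasts, was at 6.68 to 7.37 in NB_FACS and at 12.05 to 12.70 in NB_Control. The mean of 9 microglia markers was 14.27 to 14.48 in A_FACS, 13.19 to 13.35 in NB_FACS, 12.48 to 12.64 in NB_Stim and 10.39 to 11.23 in NB_Control. The part of other cells in the S100 values was not tested, and in bulk RNA more cells of a type and more RNA per cell cannot be told apart.

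Between cultures with and without the cytokines, none of the 6 S100 genes was called by limma, where 1.4% of all genes were called higher and 2% lower. At an unadjusted p below 0.05 limma had 1 gene, S100a6, beside 2969 of all 19555 genes tested. In this comparison 24% of all genes did not overlap between the groups. The Tukey test and the fit restricted to both groups called none either, and S100a8 was called only when the 2 sorted arrays described further on were left out.

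**Figure D3:**
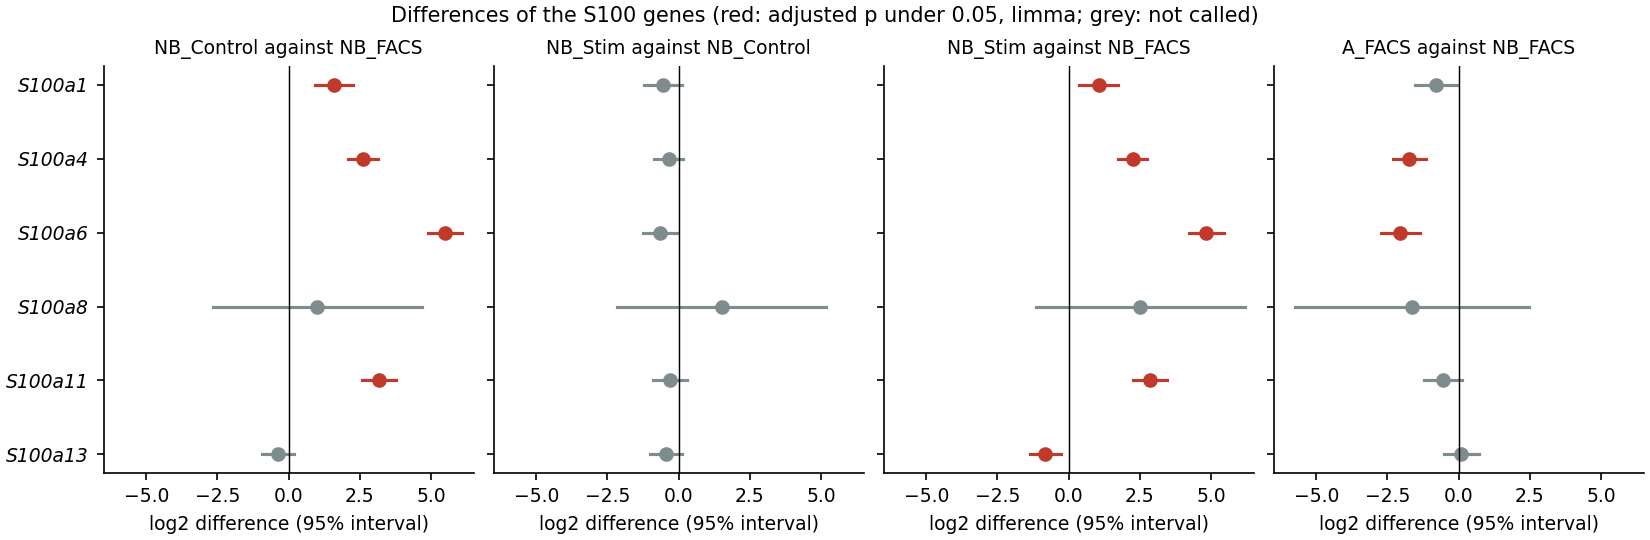
Log2 difference of each tested S100 gene (rows) in the 4 comparisons (panels), as points with 95% intervals from limma; red marks an adjusted p below 0.05, grey genes that were not called. S100a1, S100a4, S100a6 and S100a11 are red and to the right of 0 in both comparisons of cultured with sorted newborn cells, no gene is red between NB_Stim and NB_Control, and the intervals of S100a8 are the widest.

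The NB_Stim levels of S100a6 were 15.08, 15.33 and 14.21, each below the lowest NB_Control array. The difference of -0.66 had a 95% interval of -1.27 to -0.06 and a limma adjusted p of 0.277. It was uneven between slides: -0.26 on slide 1, with 2 arrays a group, and -1.48 on slide 2, with 1 array a group. S100a4 (10.20, 9.97 and 9.25 in NB_Stim) and S100a11 (11.51, 11.81 and 10.76) showed the same split. The difference of S100a4 was -0.08 on slide 1 and -0.89 on slide 2, that of S100a11 0.12 and -1.18. On all 3 genes the lowest cultured array was NB_Stim replicate 3. This array also had the lowest Col1a1 of the cultured arrays, at 10.78 against 11.86 to 12.70 on the others. Its mean over the fibroblast markers, 10.33, was the lowest as well. Not all of these markers were lowest there: its Pdgfra, at 10.10, was the highest, and its Lum, at 5.14, was above NB_Control replicate 3 (3.35). S100a1 was at 9.67, 9.55 and 9.25 in NB_Stim, below all NB_Control arrays, with a difference of -0.55 (95% interval -1.22 to 0.12) and a limma adjusted p of 0.453. It too was uneven between slides, at -0.34 on slide 1 and -0.99 on slide 2, and lowest in culture on NB_Stim replicate 3.

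Against sorted newborn cells, NB_Stim kept the higher levels. S100a6 was 28.5-fold, S100a11 7.24-fold, S100a4 4.76-fold and S100a1 2.07-fold higher than in NB_FACS, and S100a13 was lower by 0.82 on the log2 scale, a total of 5 genes called. Of all genes tested, 16% were called higher and 15.1% lower. The limma adjusted p was 2.23e-06 for S100a6, 4.29e-05 for S100a11, 7.36e-05 for S100a4, 0.0237 for S100a1 and 0.0285 for S100a13. The calls of S100a1 and S100a13 were close to the threshold: under the Tukey test both were lost, leaving 3 genes, as they were without NB_FACS replicate 1 or without NB_Stim replicate 2, and S100a1 was lost without NB_FACS replicate 2 (limma adjusted p = 0.0694) or NB_Stim replicate 1 (0.0791). S100a13 was well above background on only 1 of the 3 NB_Stim arrays (3.78, 3.19 and 3.88).

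S100a8 spread more between sorted arrays of one group than the other 5 tested members did. Its level was 6.29, 5.59 and 11.82 in NB_FACS, and 3.53 (not well above background) and 9.0 in A_FACS. In culture it was even, at 9.08, 9.27 and 8.35 in NB_Control and 10.61, 10.63 and 10.01 in NB_Stim. The SD was 3.41 in NB_FACS and 3.86 in A_FACS, against 0.487 in NB_Control and 0.352 in NB_Stim. No comparison of S100a8 was called, with limma adjusted p-values of 0.704 (NB_Control against NB_FACS), 0.784 (NB_Stim against NB_Control), 0.282 (NB_Stim against NB_FACS) and 0.579 (A_FACS against NB_FACS).

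S100a9, which encodes the partner of S100A8 in calprotectin, followed S100a8 on the sorted arrays and not on the cultured ones. It was at 3.62 (not well above background) and 7.95 in A_FACS and at 5.41, 3.47 (not well above background) and 10.11 in NB_FACS. On the 6 cultured arrays it was never well above background, at 2.33 to 3.54, where S100a8 stood at 8.35 to 10.63 and was well above background on all 6. S100a9 did not pass the filter and has no test.

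The 2 sorted arrays that were highest in both genes also had the highest Ltf and Camp, a pair of neutrophil granule genes. Ltf, which encodes lactoferrin, was at 9.61 on NB_FACS replicate 3 and 7.67 on A_FACS replicate 2, and between 5.18 and 5.98 on the other 9 arrays. Camp, which encodes an antimicrobial peptide of the granules, was at 8.92 and 7.10 on these 2 arrays and between 4.98 and 6.27 on the others. On the cultured arrays, where S100a8 was high, Ltf stayed at 5.55 to 5.98 and Camp at 4.98 to 6.14. Not all neutrophil markers were high on A_FACS replicate 2: its Ngp, at 5.69, was below NB_FACS replicates 1 and 2 (6.12 and 5.82), and its Retnlg, Mmp8, Elane and Mpo were each below A_FACS replicate 1. Over the 10 neutrophil markers tested of 11 listed, the mean level was 6.51 to 6.72 in A_FACS, 6.01 to 7.69 in NB_FACS, 6.66 to 6.77 in NB_Control and 6.58 to 6.96 in NB_Stim. Of these 10 only Lcn2, a lipocalin also made by activated glia and macrophages, was called in culture, with 7.39 to 8.84 in NB_FACS and 9.96 to 11.24 in NB_Control. Markers of other cells were higher on these 2 arrays as well. A_FACS replicate 2 had the highest monocyte mean of all arrays, at 7.71. Its border macrophage and erythroid means were 6.25 and 9.4, against 4.57 and 8.25 on A_FACS replicate 1. NB_FACS replicate 3 was the highest of its group in these lists, at 6.88, 9.85 and 12.64. Its fibroblast and astrocyte means, 6.96 and 7.25, were not the highest of the group. The part of neutrophils or of other cells in the S100a8 values of the sorted arrays was not tested.

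**Figure D4:**
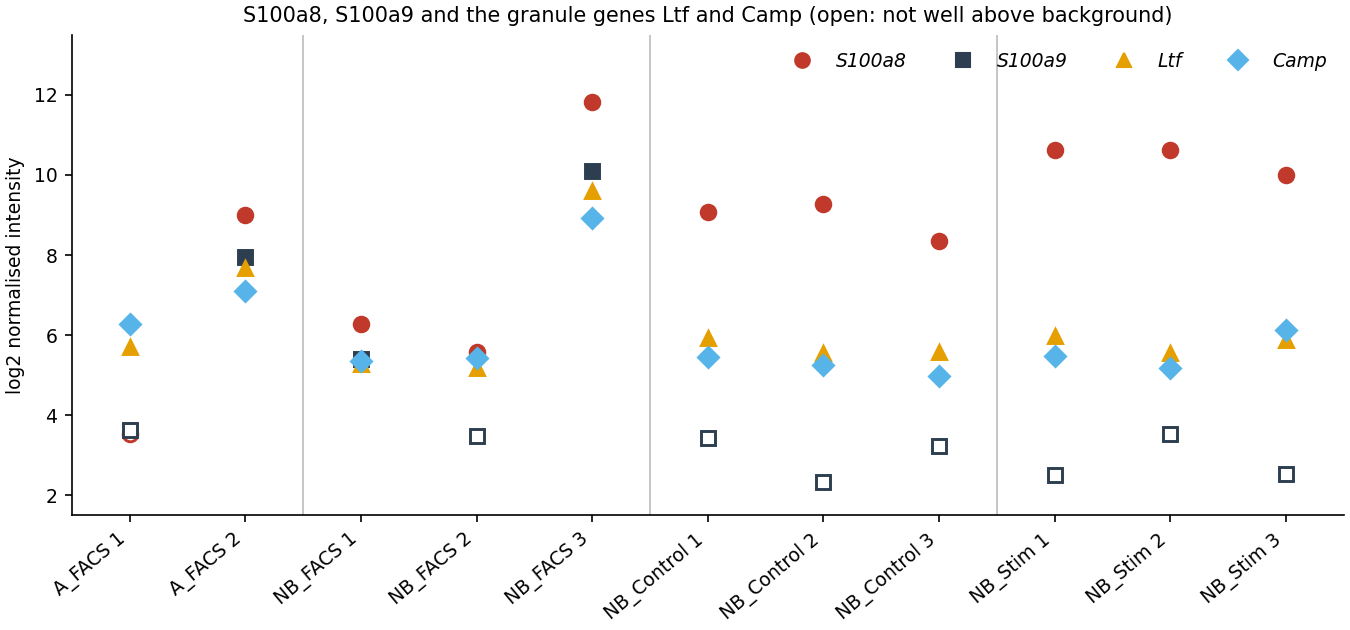
Log2 normalised intensity (vertical axis) of S100a8, S100a9 and the neutrophil granule genes Ltf and Camp on each of the 11 arrays (horizontal axis); open symbols were not well above background, and each gene is to be read against itself. All 4 genes peak on NB_FACS replicate 3 and are next highest among the sorted arrays on A_FACS replicate 2, whereas on the 6 cultured arrays S100a8 is at 8.35 or above and S100a9 is open.

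When these 2 arrays were left out, a choice made after seeing the data, S100a8 was called in the 3 comparisons among newborn groups. It was higher by 2.96 in NB_Control than in NB_FACS (limma adjusted p = 0.000701), by 4.48 in NB_Stim than in NB_FACS (0.000112) and by 1.52 in NB_Stim than in NB_Control (0.0441). On the 1 remaining A_FACS array the probe was not well above background, so no difference is given for it. The 2 arrays held the highest S100a8 of their groups, so leaving them out narrows the spread by construction. Leaving out NB_FACS replicate 3 alone gave a call in NB_Stim against NB_FACS (4.48, limma adjusted p = 0.0235). With only the first 2 replicates, all on slide 1, S100a8 was 3.23 higher in NB_Control than in NB_FACS, and on slide 2, with 1 array a group, it was 3.47 lower (-3.47). Between NB_Stim and NB_Control the difference was 1.45 on slide 1 and 1.67 on slide 2, and the groups did not overlap. With only NB_Stim and NB_Control in the fit its limma adjusted p was 0.0632. Of all genes tested, 24% did not overlap in this comparison, and 0.614% were higher in NB_Stim by a larger difference. By absolute difference, counting genes lower in NB_Stim as well, S100a8 ranked 310.

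Sorted adult microglia had less S100a6 and S100a4 than sorted newborn microglia. These 2 genes were called lower, none was called higher, and the other 4 were not called, where 12.9% of all genes were called lower and 9.76% higher. Between these groups 51.2% of all genes did not overlap. S100a6 was at 7.93 and 8.04 in A_FACS, below all NB_FACS arrays, which was 4.15-fold lower (log2 difference -2.05, 95% interval -2.73 to -1.37, limma adjusted p = 0.00127). S100a4 was at 5.83 and 5.82, which was 3.33-fold lower (-1.73, 95% interval -2.31 to -1.16, limma adjusted p = 0.00128).

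The lower S100a4 in adults rested on 1 of its probes. MMXS15085 gave 6.02 and 6.14 in A_FACS against 9.22, 9.83 and 9.35 in NB_FACS, a difference of -3.39. MMXS07714 gave 5.63 and 5.51 against 5.44, 5.79 and 5.72, a difference of -0.08. Neither probe fell to background on any of the 11 arrays.

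S100a11 was at 7.84 and 8.07 in A_FACS, below the lowest NB_FACS array, but its difference of -0.55 (95% interval -1.22 to 0.11) was not called (limma adjusted p = 0.219). S100a1 was at 7.02 and 8.26, with an SD of 0.879 over these 2 arrays, and its difference of -0.80 was not called (0.118), and turned on which of both arrays was kept: it was -1.43 and called without A_FACS replicate 2 (limma adjusted p = 0.0103), and -0.18 without A_FACS replicate 1. Each of these leaves 1 adult array, assumed to vary like the other groups. S100a13 was at 4.77 and 4.28, both inside the NB_FACS range, with a difference of 0.09 (95% interval -0.52 to 0.70). Of the 9 fibroblast markers tested, 5 were called lower in A_FACS and 2, Acta2 and Tagln, which encode contractile proteins also made by smooth muscle, were called higher. Of the border macrophage and erythroid markers, 5 of 6 and 4 of 5 tested were called lower and none higher. Their part in the S100 values was not tested.

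The order of the groups was therefore the same for S100a1, S100a4, S100a6 and S100a11: A_FACS lowest, then NB_FACS, NB_Stim and NB_Control. In none of the 4 genes were NB_Stim and NB_Control called different, and for S100a1 and S100a11 neither were A_FACS and NB_FACS. S100a8 had its highest mean in NB_Stim (10.42) and S100a13 its lowest (3.62).

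Of 9 further S100 genes listed, 8 had a probe and 6 were tested. S100b, an astrocyte gene whose product binds the receptor AGER, was at 5.55, 5.22 and 5.18 in NB_FACS, 7.82, 7.57 and 6.51 in NB_Control and 7.74, 7.61 and 8.49 in NB_Stim. It rose by 1.98 in NB_Control (limma adjusted p = 0.00669) and by 2.63 in NB_Stim (0.00137) against NB_FACS. S100a14 was higher by 0.51 in NB_Stim than in NB_FACS (limma adjusted p = 0.032). No other gene of this list was called in any of the 4 comparisons.

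Annexins are calcium-dependent membrane-binding proteins, several of which are tied together by S100 dimers. Of 12 listed, 11 had a probe and 10 were tested. In NB_Control, 6 rose and 1 fell against NB_FACS, with a median difference of 0.71. Anxa1, the partner of S100A11, rose 79.3-fold, from 6.10, 6.76 and 8.41 in NB_FACS to 12.99, 13.25 and 13.95 (limma adjusted p = 2.13e-05). Anxa4 rose by 2.37, Anxa9 by 2.02 and Anxa2, the partner of S100A10, by 1.72 (limma adjusted p = 3.54e-05, 0.000852 and 0.000375). The 1 that fell was Anxa13, named here after its values were seen. It was not well above background on any NB_Control array (limma adjusted p = 0.00536, without a floor). With dim values raised to the lowest well-above-background value of each array, it was 1.96-fold lower there than in NB_FACS. Some probes above this floor were not well above background either, so the fold is no strict lower bound.

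The cytokines lowered 1 annexin, Anxa4, by 0.97 (-0.97, limma adjusted p = 0.0407). Anxa2 was at 13.88, 14.01 and 13.40 in NB_Stim, below all NB_Control arrays (14.54 to 14.81), but its difference of -0.89 was not called (0.0751). In NB_Stim 5 annexins were higher than in NB_FACS and none lower. In A_FACS 2 were higher and 4 lower than in NB_FACS. Among the lower were Anxa2 (-2.38, limma adjusted p = 0.000236), Anxa1 (-2.05, 0.0319) and Anxa8 (0.00144). Anxa8 was not well above background in A_FACS, and with the same floor it was 5.39-fold higher in NB_FACS. Anxa9 was higher in A_FACS by 1.22 (0.0305).

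Of 17 binding partners and receptors listed, 15 were tested. In NB_Control 4 rose and 4 fell against NB_FACS. Those that rose were Cd36, a scavenger receptor that binds S100A8 and S100A9 complexes (4.36), Fgf1, the growth factor released with S100A13 (3.21), Tlr4, the receptor for S100A8 (1.55), and Ly96, which encodes the co-receptor MD-2 (1.49). Those that fell were Il1a, a cytokine released with S100A13 (-3.32), the plasminogen activators Plau (-2.01) and Plat (-1.70), and Ager, the receptor for advanced glycation end products (-0.81). Limma adjusted p-values of these 8 genes lay between 2.57e-06 and 0.00181.

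Between NB_Stim and NB_Control 4 of these genes were called, 1 higher and 3 lower. Tlr4 was at 10.21, 10.09 and 10.66 in NB_Control and at 8.62, 8.40 and 9.29 in NB_Stim, beside 8.83, 8.94 and 8.55 in NB_FACS (difference -1.55, limma adjusted p = 0.00752). Ly96 was lower by 1.16 (-1.16, 0.00471) and Cd36 by 3.18 (-3.18, 0.000209). Fgf1 rose further, from 8.32, 8.61 and 6.84 in NB_Control to 10.15, 10.08 and 10.21 in NB_Stim (2.22, limma adjusted p = 0.0409). Ahnak, a large scaffold protein that binds S100A10 with annexin A2, was not called in any comparison, with differences of 0.98, -1.67, -0.69 and -0.80 in the order given in the plot of differences.

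Against NB_FACS, NB_Stim had 4 of these partners higher and 4 lower, led by Fgf1 (5.43, limma adjusted p = 3.83e-05) and Il1a (-3.46, 2.23e-06). A_FACS had 1 higher, Fgf1 (3.13, 0.00322), and 3 lower: Cd36 (-0.97, 0.0345), Ager (-0.50, 0.0476) and Cacybp, whose product binds S100A6 (-0.49, 0.049).

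**Figure D5:**
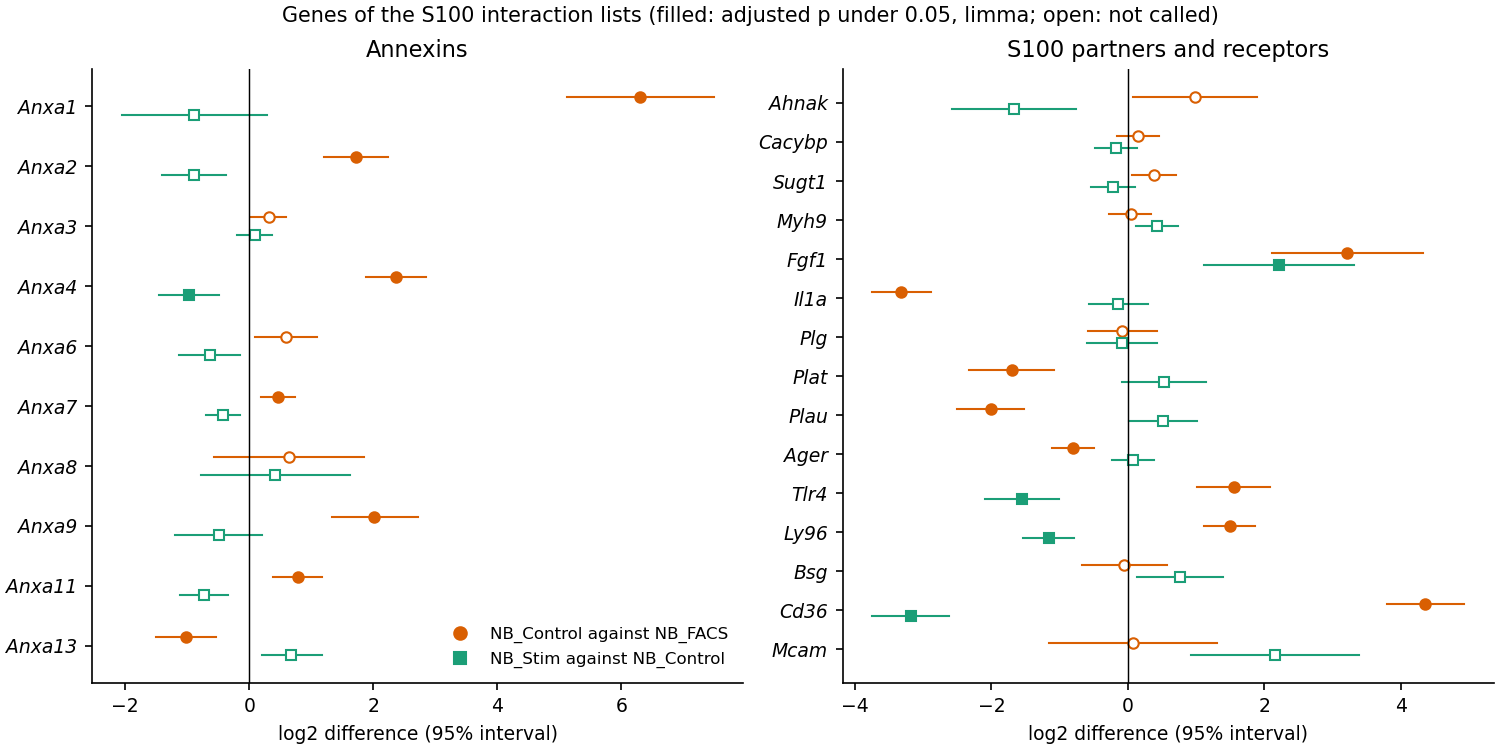
Log2 differences with 95% intervals (horizontal axis) of the annexins and the S100 partners and receptors (rows), for NB_Control against NB_FACS (orange circles) and NB_Stim against NB_Control (green squares); filled symbols were called by limma at an adjusted p below 0.05. Anxa1 (6.31) and Cd36 (4.36) are farthest right in culture, and Cd36 (-3.18), Tlr4 (-1.55), Ly96 (-1.16) and Anxa4 (-0.97) are the filled squares left of 0. These 2 comparisons share the NB_Control arrays.

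Across the 11 arrays, S100a6 tracked S100a4 (Pearson r = 0.99) and S100a11 (0.99), and S100a4 tracked S100a11 (0.96). S100a1 correlated with these 3 at 0.93 to 0.94, S100a8 with S100a1, S100a4, S100a6 and S100a11 at 0.53 to 0.67, and S100a13 with the other 5 genes at -0.75 to -0.63. The genes whose pattern was most like that of S100a6 were Acot7 (0.998), Ywhag (0.997) and Timp1 (0.995). For S100a4 they were Col1a1 (0.992), Gpr176 (0.991) and Acot7 (0.99), and for S100a11 they included Amotl2 (0.997) and Timp1 (0.991). Mrpl33 (0.987), Col6a1 (0.985) and Crtap (0.985) were closest to S100a1. For S100a8 the closest were 5830454E08Rik (0.95), Zc3hav1l (0.928) and Cntn2 (0.922), and for S100a13 1700001J11Rik (0.897), Ces2b (0.893) and Nanog (0.891). These correlations are descriptions over 11 arrays of 4 groups, so that differences between groups enter them, and all genes of an array share its RNA and its normalisation.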

How the data were processed

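Total RNA of sorted and cultured mouse microglia was labelled with Cy3 and hybridised to Agilent ArrayXS_Mouse_V1 arrays. Per the file headers, the deposited intensity values are the processed signals of Agilent Feature Extraction 11.5.1.1, background-subtracted and not yet normalised between arrays (version 11 in the submitters' processing notes). The deposited series value table held the same intensity values and served as a check. Groups were taken from the sample titles.

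Each array carried 62976 spots, 1439 of them controls. Spots of a probe were averaged without outlier flags, 138 probes with no unflagged spot on some array were dropped, log2 values were quantile-normalised, and a probe was kept if, in 1 group or more, each array had it well above background (44727 probes). Probes were named through unversioned RefSeq accessions: 36264 of 60037 probes matched a gene of GRCm38.p6. A gene's value was the mean over its kept probes. Groups were compared with limma 3.58.1 in R 4.3.3 (1 mean per group, 7 residual degrees of freedom, Benjamini-Hochberg over 19555 genes), after tests on simulated data. The number of arrays limits the precision. The methods' test, Tukey's, was an alternative, as were other scaling, background correction, filters, blocks and left-out arrays.

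The S100 genes and all gene lists were chosen with earlier results of these data known. Genes of the lists were named if called, at most the 4 largest differences per list and comparison, together with Anxa2, Ahnak, Ager, Tlr4, S100a9 and S100b; for each S100 gene the 3 genes with the highest Pearson r were named, except 1 that is not reported here. The methods state that samples are independent biological replicates, without saying which flasks or litters they came from.

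The newborn groups share replicate numbers, and same-numbered arrays deviated together. The correlation of their deviations from the group means over all genes was 0.27 to 0.49 between NB_Control and NB_Stim. It was 0.31 to 0.45 between NB_FACS and NB_Control, and 0.11 to 0.44 between NB_FACS and NB_Stim. Between A_FACS and NB_FACS it was 0.17 and -0.07. Number 3 coincides with the second slide, and deviations within a group balance out. A slide difference alone can therefore give such correlations for every number, so they cannot show whether the arrays are paired. Other cell types were checked with marker lists for microglia, neutrophils, monocytes, border macrophages, fibroblasts, astrocytes, endothelium, oligodendrocytes, neurons and erythroid cells.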

Additional observations from a re-analysis of the deposited data

Results flagged for a closer look

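S100a9 stood outside the comparisons because its probe did not pass the filter, but it was well above background on 3 sorted arrays and on none of the 3 NB_Control arrays. Its log2 level was 7.95 on A_FACS replicate 2, 5.41 on NB_FACS replicate 1 and 10.11 on NB_FACS replicate 3, beside 2.33 to 3.42 in NB_Control. S100a8 on the same 3 arrays was at 9.0, 6.29 and 11.82.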

How the results depend on the processing

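Each difference of the 6 S100 genes was recomputed under up to 25 alternative settings, 592 values in all: 564 kept their direction and their side of the threshold, 16 lost the call, 7 gained it and 5 changed sign. The calls of S100a1, S100a4, S100a6 and S100a11 in NB_Control against NB_FACS were kept under all of them. So were those of S100a4, S100a6 and S100a11 in NB_Stim against NB_FACS and of S100a4 and S100a6 in A_FACS against NB_FACS. No setting used the S100a4 probe MMXS07714 alone, whose difference in A_FACS against NB_FACS was -0.08, beside -3.39 for MMXS15085. The sign changes were in differences that were not called: S100a8 in A_FACS against NB_FACS (1.1 without A_FACS replicate 1 and 0.32 without NB_FACS replicate 3, in a range down to -4.37 without A_FACS replicate 2) and in NB_Control against NB_FACS (-0.15 without NB_FACS replicate 2, up to 2.96 without NB_FACS replicate 3), and S100a13 in A_FACS against NB_FACS (-0.16 without A_FACS replicate 1, -0.05 without NB_FACS replicate 2, up to 0.33 without A_FACS replicate 2). The cause was not tested.

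In NB_Stim against NB_FACS the number of S100 genes called fell from 5 to 3 under Tukey's test, with or without adjustment over genes, and when the similar cultured replicates 1 and 2 were averaged, an alternative chosen after seeing the data. Without 1 array at a time it was 3 to 6. S100a13 also lost its call under scaling to the 75th percentile (-0.82, adjusted p = 0.0547), normexp (-0.16, 0.129) and the fit of only both groups (0.0615). S100a1 lost it without NB_FACS replicate 1 or 2 and without NB_Stim replicate 1 or 2, and both were lost with the averaged replicates. With A_FACS replicate 2 and NB_FACS replicate 3 left out, also chosen after seeing the data, the number called was 1 in NB_Stim against NB_Control and 4 in A_FACS against NB_FACS, where 1 adult array remained, S100a8 on it not well above background. Without 1 array at a time it was 4 in NB_Control against NB_FACS, 0 in NB_Stim against NB_Control and 2 to 3 in A_FACS against NB_FACS.

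With the replicate number as a block, the number of S100 genes called was 4 in NB_Control against NB_FACS, 0 in NB_Stim against NB_Control, 5 in NB_Stim against NB_FACS and 2 in A_FACS against NB_FACS, as without it. The block changed no call of an S100 gene. Over all genes, it raised the number called in NB_Stim against NB_Control from 666 to 1196. The slide as a block gave 1475, normexp 1009, Tukey's test 1589 without and 183 with adjustment over genes, a difference of at least 1 425, the averaged replicates 117, and single arrays left out 304 to 704. In NB_Control against NB_FACS, 5811 genes were called, 3159 at a difference of at least 1 and 3545 by Tukey's test with adjustment. In NB_Stim against NB_FACS these counts were 6083, 3215 and 3619, and in A_FACS against NB_FACS 4436, 2407 and 2014. In the last comparison the fit of only both groups gave 2923, the fit without A_FACS replicate 1 gave 2456 and that without the 2 arrays named above 2908. A probe that is dim, such as that of S100a13, has little signal over background to show a fall.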

Other observations

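The other marker lists are given by their mean log2 level and by the number of tested markers that limma called between NB_Control and NB_FACS. Endothelial markers fell in culture, 5 of 7 lower and none higher in NB_Control than in NB_FACS, and their mean log2 level went from 8.23 to 8.66 on the sorted newborn arrays to 4.89 to 5.69 in NB_Control. Erythroid markers, at 11.85 to 12.64 in NB_FACS, were at 3.64 to 3.91 in NB_Control, with 4 of 5 called lower. Astrocyte markers, a list that holds S100b, were at 7.25 to 7.52 in NB_FACS and 7.53 to 7.93 in NB_Control, with 3 of 8 called higher. Monocyte markers were at 6.52 to 6.88 in NB_FACS and 7.08 to 7.57 in NB_Control, with 3 of 5 called higher and 1 lower. Border macrophage markers were at 8.63 to 9.85 in NB_FACS, 8.86 to 9.62 in NB_Control and 6.95 to 7.30 in NB_Stim, with 2 of 6 called higher and 3 lower in NB_Control than in NB_FACS. Of 5 oligodendrocyte markers 1 was called higher in NB_Control, and the mean of 5 neuron markers was 5.29 to 5.68 in NB_FACS and 4.72 to 5.57 in NB_Control. A_FACS arrays held 8.84 to 9.51 in endothelial and 8.25 to 9.40 in erythroid markers.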
